A study of Arabidopsis thaliana with 12 samples.

Results

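The 8 cellulose synthases CESA1 to CESA8 and the 2 companion proteins CC1 and CC2 were followed in *Arabidopsis* roots. The members were chosen as a functional group, with earlier results of these data known, and were found through their AGI locus: CESA1 (AT4G32410), CESA2 (AT4G39350), CESA3 (AT5G05170), CESA4 (AT5G44030), CESA5 (AT5G09870), CESA6 (AT5G64740), CESA7 (AT5G17420), CESA8 (AT4G18780), CC1 (AT1G45688) and CC2 (AT5G42860). They made up 10 of the 25206 genes tested, and each was well above background on all 12 arrays. Single-colour Agilent arrays measured total RNA of whole roots from 7-day-old seedlings in 4 groups: *agb1* after 4 h in 150 mM NaCl, *agb1* at 0 h, wild-type (WT) Col-0 after 4 h in 150 mM NaCl, and WT at 0 h. The *agb1* plants carried *agb1-3*, a T-DNA insertion in *AGB1*, the gene of the Gβ subunit, and only this allele was profiled, so an effect of the line and of the gene cannot be told apart. Each group had 3 arrays, described as independent replicates without naming separate cultures, so p-values measure the spread between these samples, which may be partly technical. The sample labels give the baseline as 0 h of salt, while the study's methods describe 4 h in medium with no NaCl; which of the 2 applied is not settled by the sources used here. Whole roots mix all root cell types, so fewer cells of a type and less RNA per cell cannot be told apart in any value below.

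Cellulose is made at the plasma membrane by rosette-shaped complexes of CESA subunits. In growing cells the primary wall complex holds CESA1, CESA3 and a CESA6-like subunit, a position that CESA2, CESA5 and CESA6 can fill. In xylem vessels and fibres the secondary wall complex holds CESA4, CESA7 and CESA8, whose mutants are known for collapsed, irregular xylem. CC1 and CC2 are membrane proteins that bind both the complex and cortical microtubules, and plants that lack both are known for failing to restore cellulose synthesis on salt.

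Values are given as log2 signal, the log2 processed signal of a gene's probe minus the 75th percentile of its array, so that 0 is the level of that percentile and 1 unit is a doubling. Levels of different probes are not on a common scale, and only the same gene is compared between arrays. The 75th percentile lay between 1772 and 3582 intensity units, between 74.1% and 76.1% of spots were well above background, and no spot was saturated. In *agb1* at 0 h the spread between replicates 1 and 2 was 0.0865, below the 0.118 of repeated spots on those arrays, and they were averaged and counted as 1 sample, so that *agb1* at 0 h had n = 2 and the model 11 samples. In WT at 0 h replicate 3 lay within the larger spread of repeated spots of its pairs (0.156 against 0.217 with replicate 1, 0.225 against 0.232 with replicate 2), while replicates 1 and 2 did not (0.182 against 0.158); these 3 arrays were kept as separate samples, and the calls that were lost when replicate 3 was averaged with replicate 1 or 2 are given beside them, an alternative chosen after seeing the data. Replicate 3 of *agb1* at 0 h stood apart from both (spreads of 0.439 and 0.438), and replicate 3 of WT at 4 h from replicate 1 (0.474). *AGB1* had log2 signals of 0.88, 0.39 and 0.67 in *agb1* at 4 h and of 0.07, -0.10 and 0.63 in *agb1* at 0 h, against 1.58, 1.32 and 1.26 in WT at 4 h and 1.42, 1.64 and 1.46 in WT at 0 h. Every *agb1* array lay below every WT array, and the difference was -1.20 at 0 h (SE 0.22, limma adjusted p = 0.0340) and -0.74 at 4 h (SE 0.19, adjusted p = 0.112). These values are of the brighter of 2 *AGB1* probes, and the other was not examined. Where the probe lies relative to the insertion was not determined.

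The first comparison asked how the members changed with salt in WT roots. *CC1* and *CESA5* fell, and no member rose. *CC1* had log2 signals of 2.62, 2.45 and 2.88 in WT at 4 h, against 3.37, 3.37 and 3.54 at 0 h. The groups did not overlap, and the change of -0.78 (SE 0.16, adjusted p = 0.0118) was a level 1.72-fold lower at 4 h. *CESA5*, known for its part in seed coat mucilage as well as in growing tissue, had -1.43, -1.28 and -0.95 at 4 h, against -0.70, -0.38 and -0.36 at 0 h. The lowest 0 h array lay above the highest 4 h array, and the change was -0.74 (SE 0.22, adjusted p = 0.0437). Thus 2 of 10 members passed the test downward, against a background of 11.2% of all genes tested; none passed upward, where the background was 8.84%.

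The other primary wall members and *CC2* had lower values that did not pass. *CESA2* had 1.13, 1.01 and 1.74 in WT at 4 h, against 2.05, 2.20 and 2.26 at 0 h. This was the largest estimate of any member in any of the 5 comparisons, at -0.88 (SE 0.27, adjusted p = 0.0513), and replicate 3 at 4 h lay well above the other two. *CC2*, the closest relative of *CC1*, had -0.59, -0.62 and -0.14 at 4 h, against 0.17, 0.03 and 0.26 at 0 h, a change of -0.60 (SE 0.23, adjusted p = 0.0901). *CESA3*, an obligate subunit of the primary wall complex, had 3.45, 3.28 and 3.70 at 4 h, against 3.80, 3.95 and 3.92 at 0 h, a change of -0.41 (SE 0.17, adjusted p = 0.120). Replicate 3 was the highest of the 4 h arrays in each of these genes, but their groups did not overlap. For *CESA1*, the other obligate subunit, and *CESA6* the groups overlapped, with changes of -0.18 (95% interval -0.63 to 0.26) and -0.21 (-0.66 to 0.24). Of the 10 members 9 had lower means at 4 h in WT (58.7% of all genes did), *CESA4* by the least and turning sign with array weights or with WT replicates 2 and 3 at 0 h averaged. In all, 5 of 10 members lay wholly lower at 4 h, against 27.5% of all genes, and the same count had an unadjusted p below 0.05 in that direction, against 21.2%.

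The secondary wall members did not pass in WT, and their estimates lay near 0. *CESA4* had a log2 change of -0.02 (95% interval -0.34 to 0.29), *CESA7* of 0.16 (-0.16 to 0.48) and *CESA8* of -0.08 (-0.41 to 0.25). Each of these intervals excludes a log2 change as large as that of *CC1*. The median change was -0.41 over the 5 primary wall members, -0.69 over the companions and -0.02 over the secondary wall members, beside -0.10 over all genes.

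Leaving out arrays moved the calls in WT. Of 12 fits that each left out 1 array, *CC1* lost the call only without replicate 3 of WT at 0 h (adjusted p = 0.0539). *CESA5* lost it without any of the 3 replicates of WT at 0 h, without replicate 1 or 2 of WT at 4 h, and without replicate 2 or 3 of *agb1* at 4 h (adjusted p up to 0.138), while *CESA2* gained it without replicate 3 of WT at 4 h (0.0266) or replicate 3 of *agb1* at 0 h (0.0221). With replicate 3 of WT at 0 h averaged with replicate 1 or 2, *CC1* was called (adjusted p = 0.0436 and 0.0423) and *CESA5* was not (0.0926 and 0.127). With the slide as a block neither was called (adjusted p = 0.0632 for *CC1* and 0.169 for *CESA5*), and within the 2 slides that held both groups *CC1* differed by -0.76 and -0.67 and *CESA5* by -0.73 and -0.60.

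**Figure D1:**
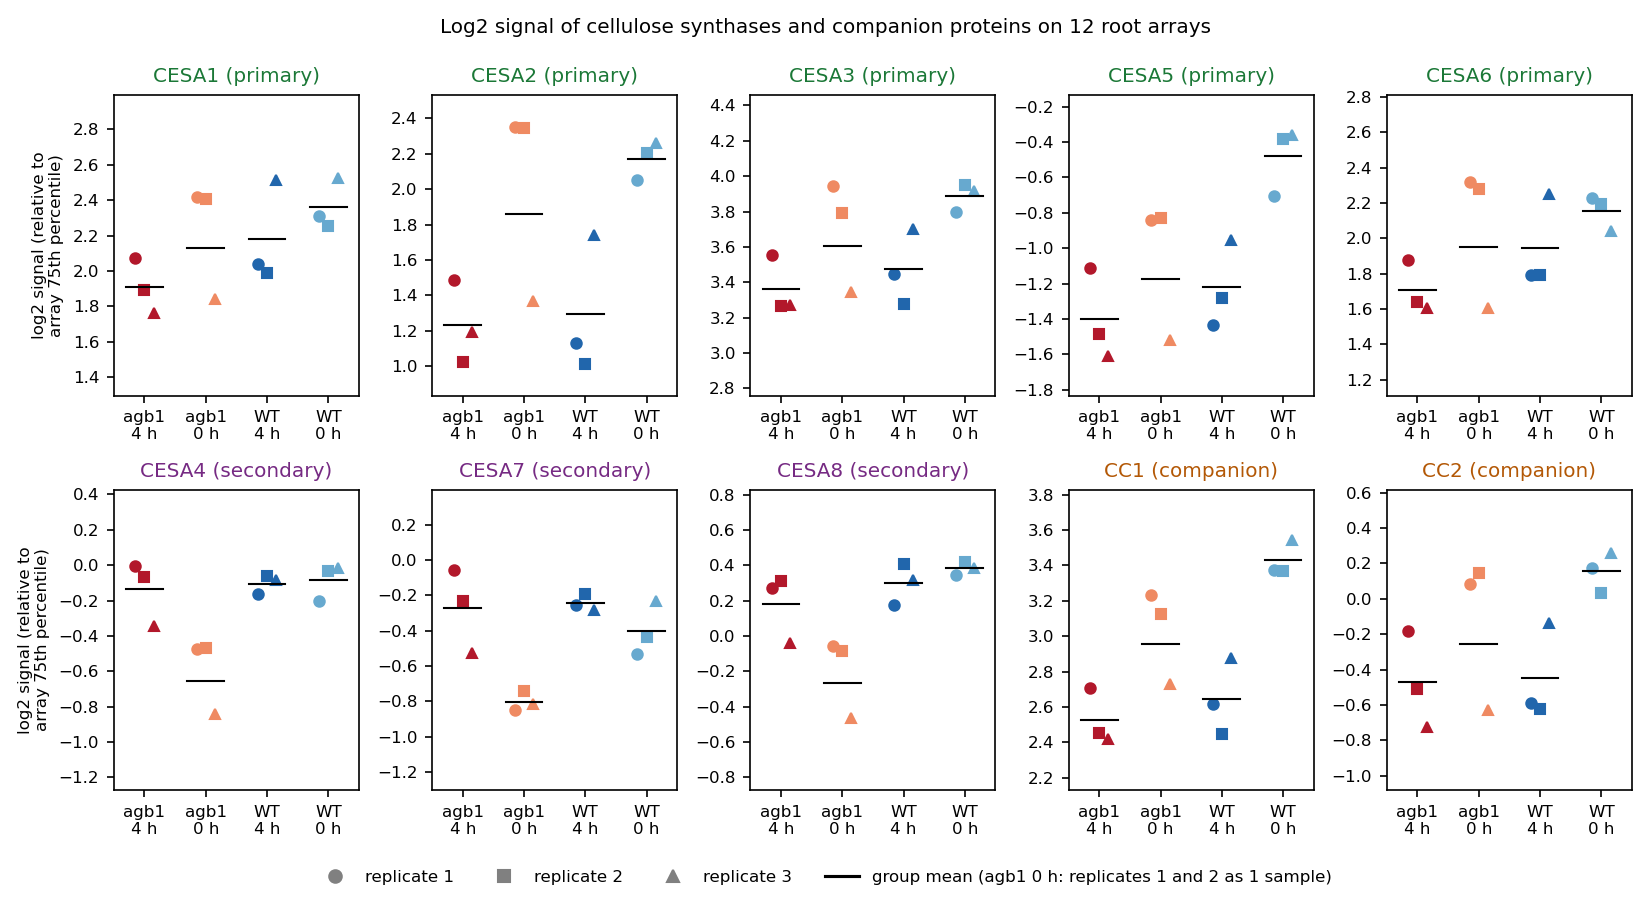
Log2 signal (processed signal relative to the array's 75th percentile) of the 10 members on 12 root arrays, 1 panel a gene, each panel spanning the same range of log2 units; symbols mark the replicate number and bars the group mean, with replicates 1 and 2 of agb1 at 0 h counted as 1 sample. CC1 lies at 2.45 to 2.88 in WT at 4 h and at 3.37 to 3.54 in WT at 0 h, and CESA4, CESA7 and CESA8 have their lowest arrays in agb1 at 0 h.

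The second comparison asked the same of *agb1* roots. No member passed the test (0 of 10; background 2.11% in either direction), and 4 of 10 had an unadjusted p below 0.05, against 22.1% of all genes: the 3 secondary wall members upward and *CC1* downward. *CESA4* had log2 signals of -0.0030, -0.06 and -0.34 in *agb1* at 4 h, against -0.48, -0.47 and -0.84 at 0 h. *CESA7* had -0.05, -0.23 and -0.53 at 4 h, against -0.85, -0.74 and -0.81 at 0 h. *CESA8* had 0.27, 0.31 and -0.04 at 4 h, against -0.06, -0.08 and -0.46 at 0 h. In each of the 3 genes all 4 h arrays lay above all 0 h arrays, although replicate 3 was low at both times in *CESA4* and *CESA8* and at 4 h in *CESA7*. The changes were 0.52 (SE 0.16, adjusted p = 0.110), 0.53 (SE 0.16, adjusted p = 0.107) and 0.45 (SE 0.16, adjusted p = 0.159). The 3 genes without overlap upward were these, against 16.2% of all genes.

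Within slides the same direction held for the secondary wall genes of *agb1*. Each of 3 slides held *agb1* arrays of both times, and the differences were 0.40 to 0.50 for *CESA4*, 0.28 to 0.79 for *CESA7* and 0.33 to 0.42 for *CESA8*. On 2 of these slides the 0 h arrays were replicates 1 and 2, counted as 1 sample, so the 3 slides are not 3 separate observations. With replicates 1 and 2 at 0 h taken as separate samples, *CESA7* passed (adjusted p = 0.0319) and the others did not (0.0519 for *CESA4* and 0.0952 for *CESA8*).

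The primary wall members and companions had lower values at 4 h in *agb1* as well, on each of 3 slides, but replicate 3 at 0 h decided how far. Replicates 1 and 2 at 0 h, counted as 1 sample, gave the 0 h side on 2 of these slides. *CC1* had 2.71, 2.45 and 2.42 at 4 h, against 3.23, 3.12 and 2.73 at 0 h, a change of -0.43 (SE 0.18, adjusted p = 0.213) and the 1 member without overlap downward (background 18.4%). *CESA2* had 1.49, 1.02 and 1.19 at 4 h, against 2.35, 2.34 and 1.37 at 0 h, so that replicate 3 at 0 h lay among the 4 h arrays. The *CESA2* change was -0.62 (SE 0.31, adjusted p = 0.265), and -1.12 without replicate 3 at 0 h (adjusted p = 0.0712), a fit in which *agb1* at 0 h is 1 sample and is assumed to vary like the other groups. *CESA1*, *CESA3*, *CESA5*, *CESA6* and *CC2* had log2 changes of -0.22, -0.24, -0.22, -0.24 and -0.22, and of -0.50, -0.50, -0.57, -0.59 and -0.59 without that array, none of them past the test. The median was -0.24 over the primary wall members, -0.32 over the companions and 0.52 over the secondary wall members, beside -0.04 over all genes.

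The third comparison set *agb1* against WT before salt. All 10 members had lower means in *agb1* (49.9% of all genes did), though *CESA1*, *CESA2* and *CESA6* only with replicate 3 of *agb1* in the fit. None passed the test (background 1.88%), and 5 of 10 had an unadjusted p below 0.05, against 10.4% of all genes in that direction. The same genes, *CESA4*, *CESA5*, *CESA7*, *CESA8* and *CC1*, lay wholly below WT, against 20.3% of all genes. *CESA8* had -0.06, -0.08 and -0.46 in *agb1*, against 0.35, 0.42 and 0.38 in WT. Its 3 WT arrays spanned under 0.1 log2 units, and the difference was -0.65 (SE 0.16, adjusted p = 0.0834), a level 1.57-fold lower in *agb1*. *CESA4* had -0.48, -0.47 and -0.84 in *agb1*, against -0.20, -0.03 and -0.02 in WT, a difference of -0.57 (SE 0.16, adjusted p = 0.102). *CESA7* had -0.85, -0.74 and -0.81 in *agb1*, against -0.53, -0.43 and -0.23 in WT, a difference of -0.40 (SE 0.16, adjusted p = 0.207). Here *agb1* replicate 3 was not apart from the other 2 arrays.

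*CESA8* and *CESA4* had the lowest adjusted p of the members at 0 h, and their calls turned on how the *agb1* arrays were counted. With all 12 arrays as samples *CESA8* (-0.58, adjusted p = 0.0338) and *CESA4* (-0.51, adjusted p = 0.0451) passed, and *CESA7* did not (0.0841). Without *agb1* replicate 3 the differences were -0.45 for *CESA8*, -0.39 for *CESA4* and -0.40 for *CESA7*, with adjusted p of 0.205, 0.246 and 0.300, where the 1 sample left in *agb1* at 0 h is assumed to vary like the other groups. On the 2 slides with both genotypes at 0 h the differences were -0.40 and -0.85 for *CESA8*, -0.27 and -0.82 for *CESA4*, and -0.32 and -0.58 for *CESA7*.

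The differences of the primary wall members and companions at 0 h depended on 1 array, in part for *CESA5* and *CC1* and more for the others. *CESA5* had -0.84, -0.83 and -1.52 in *agb1*, against -0.70, -0.38 and -0.36 in WT, a difference of -0.70 (SE 0.25, adjusted p = 0.173). *CC1* had 3.23, 3.12 and 2.73 in *agb1*, against 3.37, 3.37 and 3.54 in WT, a difference of -0.47 (SE 0.18, adjusted p = 0.205). In both, replicate 3 of *agb1* was the lowest array, and without it the differences were -0.35 and -0.25. Replicates 1 and 2 of *agb1* also lay below every WT array in these 2 genes. *CESA1*, *CESA2* and *CESA6* differed by -0.24, -0.31 and -0.20 with that array and by 0.05, 0.18 and 0.14 without it, so their direction rested on it. *CESA3* and *CC2* differed by -0.28 and -0.41 with it and by -0.02 and -0.04 without it.

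**Figure D2:**
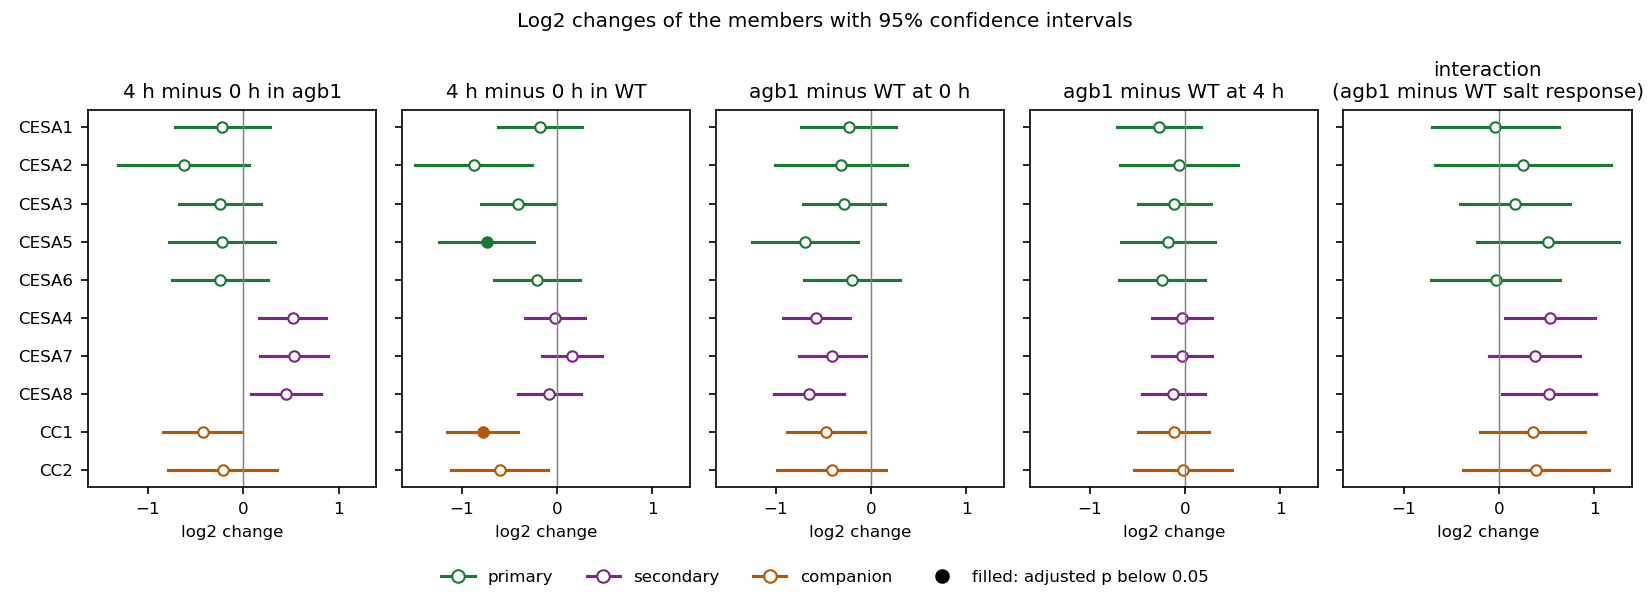
Log2 change of each member in the 5 comparisons (points) with the 95% confidence interval of the model (lines); filled points have an adjusted p below 0.05. Only CC1 (-0.78) and CESA5 (-0.74) in the salt response of WT are filled, and the 3 secondary wall CESAs lie at 0.45 to 0.53 in the salt response of agb1 and at -0.65 to -0.40 in agb1 against WT at 0 h.

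After 4 h of salt the group means of the members differed little between *agb1* and WT, while the sign varied between slides. On the slide of replicate 1 every member was higher in *agb1* (0.03 to 0.41). On that of replicate 3, which held the outlying WT array, every member was lower (-0.75 to -0.25). The slide of replicate 2 gave differences of -0.20 to 0.11. All 10 means were lower in *agb1* (42.7% of all genes were), with differences of -0.27 to -0.02, but the sign turned for *CESA1*, *CESA2*, *CESA3*, *CESA7* and *CC2* under another scaling, background correction, probe choice or weighting. None passed the test (background 1.65%), none had an unadjusted p below 0.05 (14.3% of all genes did), and none lay wholly below or wholly above WT (7.07% and 11.6% of all genes). The secondary wall members differed by -0.03 for *CESA4* (95% interval -0.35 to 0.28), -0.03 for *CESA7* (-0.35 to 0.29) and -0.12 for *CESA8* (-0.45 to 0.21). Each of these differences was smaller than the range of the 3 *agb1* arrays at 4 h. The intervals of the primary wall members were wider, and that of *CESA2* (-0.06, from -0.68 to 0.56) allows a difference in either direction.

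The interaction compared the 2 salt responses directly. No member passed (background 0.179%), and 2 of 10, *CESA4* and *CESA8*, had an unadjusted p below 0.05 with a higher response in *agb1*, against 7.18% of all genes. The salt response of *agb1* exceeded that of WT by 0.54 for *CESA4* (SE 0.21, adjusted p = 0.342), 0.53 for *CESA8* (SE 0.22, adjusted p = 0.368) and 0.38 for *CESA7* (SE 0.21, adjusted p = 0.500). *CESA5* had 0.52 (SE 0.33, adjusted p = 0.551), *CC2* 0.39 and *CC1* 0.35. *CESA1* and *CESA6* had -0.03 each, with intervals of -0.70 to 0.63 and -0.71 to 0.64 that allow a difference in either direction. A second, dimmer probe of *CESA1* had 0.60 (adjusted p = 0.380), and 1 of *CESA3* had 0.70 (adjusted p = 0.414). The 3 comparisons with *agb1* at 0 h share that group's 2 samples, so the response of the secondary wall genes in *agb1*, their difference at 0 h and their interaction are not separate observations.

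Averaged by class, after each gene was centred on its mean, the secondary wall genes minus the primary wall genes stood at 0.28, 0.52 and 0.23 in *agb1* at 4 h, at -0.72, -0.65 and -0.25 in *agb1* at 0 h, at 0.31, 0.48 and -0.08 in WT at 4 h, and at -0.28, -0.28 and -0.25 in WT at 0 h. In both genotypes the balance lay further toward the secondary wall genes on every 4 h array than on any 0 h array. No share over all genes was computed for this class contrast, and *agb1* at 0 h counts as 2 samples. The brighter probes of *CESA1* and *CESA3* were used, while their dimmer probes had 0.38 and 0.33 in the salt response of *agb1*. The secondary wall mean alone spanned 0.06 to 0.19 in WT at 4 h and 0.01 to 0.18 in WT at 0 h, and its groups did not overlap in *agb1*, with -0.17 to 0.21 at 4 h and -0.57 to -0.29 at 0 h.

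**Figure D3:**
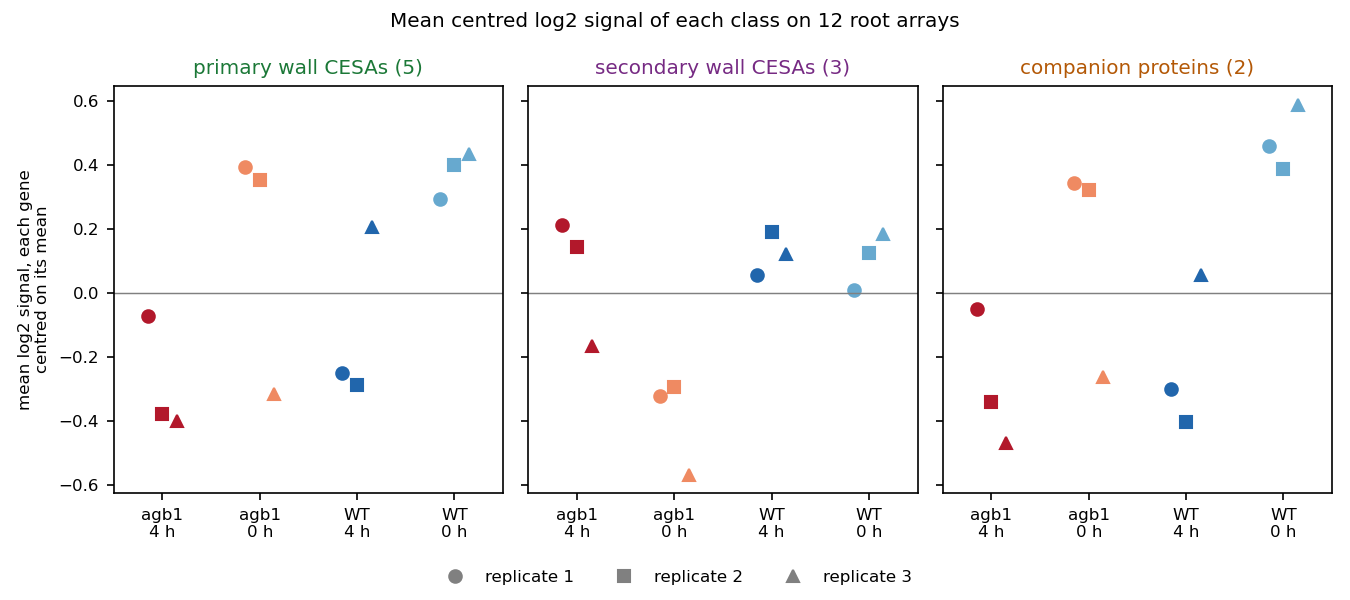
Mean log2 signal of the 5 primary wall CESAs, the 3 secondary wall CESAs and the 2 companion proteins on each of 12 arrays, each gene first centred on its mean over arrays; symbols mark the replicate number. The companions follow the primary wall genes, with replicate 3 of agb1 at 0 h low (-0.32 for primary wall and -0.26 for companions), and the secondary wall genes are lowest on the 3 arrays of agb1 at 0 h (-0.57 to -0.29).

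Each CESA followed its own class more closely than the other when the group means were kept in. Over the 11 samples the median Pearson r was 0.89 for the 10 pairs of primary wall genes (0.83 to 0.97) and 0.87 for the 3 pairs of secondary wall genes (0.76 to 0.96). *CC1* and *CC2* followed each other with r of 0.93 and the primary wall genes with a median r of 0.93. Between primary and secondary wall genes the median was 0.23 over 15 pairs (-0.33 to 0.51). The points of these correlations share arrays, scaling and the 4 group means. With the group means removed the median was 0.90 within the primary wall class (0.82 to 0.97) and 0.70 within the secondary wall class (0.55 to 0.93). Between the 2 classes it was 0.57 (0.07 to 0.86), so arrays that were low in one class tended to be low in the other. These ranges overlapped, and *CESA4* had r of 0.86 with *CESA5* and 0.70 with *CESA7*.

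*CESA1* and *CESA3* each had a second, dimmer probe. In WT it moved with salt in the same direction as the brighter one (-0.21 for *CESA1* and -0.37 for *CESA3*), and in *agb1* in the opposite direction (0.38 and 0.33), with no adjusted p below 0.05. At 0 h the dimmer probes differed between *agb1* and WT by -0.28 and -0.40, as the brighter ones did, and at 4 h by 0.31 and 0.30, opposite to them. In the interaction they had 0.60 for *CESA1* (adjusted p = 0.380) and 0.70 for *CESA3* (adjusted p = 0.414). The brighter probes had -0.03 and 0.17 there. The direction of *CESA1* and *CESA3* in *agb1* under salt therefore depended on the probe. *CESA9*, a seed-expressed CESA6-like gene, gave log2 signals of -6.79 to -5.74 over all arrays and passed no test, and *CESA10* had no matched probe.

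Of 15 other genes of primary wall cellulose synthesis, 12 were tested. In WT 10 of the 12 had lower means at 4 h (58.7% of all genes did), with a median of -0.41, and 2 fell (11.2% of all genes). *POM1* (also *CTL1*), a chitinase-like protein of cellulose assembly, had 3.68, 3.32 and 3.56 in WT at 4 h, against 4.06, 4.35 and 4.34 at 0 h, a change of -0.73 (SE 0.17, adjusted p = 0.0170). *GH9A1* (*KORRIGAN1*), the membrane endoglucanase of the complex, had 2.84, 2.60 and 2.74 at 4 h, against 3.43, 3.13 and 3.68 at 0 h, a change of -0.69 (SE 0.15, adjusted p = 0.0154). Neither gene overlapped between the times in WT, but neither was called without replicate 3 of WT at 0 h or replicate 2 of WT at 4 h, and the call was also lost without replicate 2 of WT at 0 h for *POM1* and without replicate 1 for *GH9A1*. With the slide as a block *POM1* was not called (adjusted p = 0.0810), with normexp background correction neither was, and with replicate 3 of WT at 0 h averaged with replicate 2 *POM1* was not called and with replicate 1 *GH9A1* was not. In *agb1* 11 of the 12 were lower at 4 h (13631 of all 25206 genes were), with a median of -0.23 and none past the test. *POM1* and *GH9A1* had -0.23 each. At 0 h 9 of the 12 were lower in *agb1* than in WT (49.9% of all genes were), and 3 without replicate 3 of *agb1* at 0 h. At 4 h 6 of the 12 were (42.7% of all genes), and 9 without replicate 2 of WT at 4 h. None passed in either case.

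The receptors *THE1* and *FER*, known for sensing the state of the wall, were both lower after salt. *THE1* had -0.86, -1.12 and -0.86 in *agb1* at 4 h, against 0.63, 0.64 and -0.02 at 0 h, and fell by 1.26 (adjusted p = 0.0279), a call lost without replicate 1 of WT at 0 h or replicate 2 or 3 of *agb1* at 4 h, and with array weights, normexp or only the 2 groups in the fit. In WT it had -0.75, -0.91 and -0.54 at 4 h, against 0.60, 0.34 and 0.80 at 0 h, and fell by 1.31 (adjusted p = 0.00292). *FER* fell in WT (-0.52, adjusted p = 0.0208; not called without any one of the WT arrays at 0 h or replicate 2 of WT at 4 h, nor with WT arrays at 0 h averaged, the slide block, the mean of all probes or normexp) and had -0.53 in *agb1* (adjusted p = 0.0838). The interactions of *THE1* and *FER* were 0.06 and -0.01, and neither differed between genotypes past the test at either time.

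Sucrose synthases, which can supply UDP-glucose for cellulose, split by gene. *SUS4* had 4.15, 3.85 and 2.80 in WT at 4 h, against 5.85, 5.63 and 5.94 at 0 h, and fell by 2.21 (SE 0.43, adjusted p = 0.00833). At 0 h it had 2.84, 2.86 and 4.19 in *agb1*, a difference from WT of -2.29 (SE 0.48, adjusted p = 0.0487) that was not called without any one of the WT arrays at 0 h, replicate 2 of WT at 4 h, or any one of the *agb1* arrays at 4 h, nor with WT arrays at 0 h averaged, the slide block (adjusted p = 0.0905), median scaling, array weights, normexp or no filter on dim probes. *SUS3* rose in WT by 0.73 (adjusted p = 0.0433), and kept the call in no fit without one of the WT arrays at 0 h, replicate 2 or 3 of WT at 4 h or one of the *agb1* arrays at 4 h, nor with WT arrays at 0 h averaged, the slide block (0.113), median scaling, normexp or no filter on dim probes. Of the 6 genes 4 lay wholly below WT in *agb1* at 0 h (20.3% of all genes did), 1 of them past the test (1.88% of all genes in either direction), and none passed between genotypes at 4 h.

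A list of 20 other genes of secondary walls and xylem was set beside *CESA4*, *CESA7* and *CESA8*: xylan and lignin enzymes, fasciclin-like proteins and xylem proteases. At 0 h all 20 had lower means in *agb1* than in WT (49.9% of all genes did), by -0.64 to -0.04 with a median of -0.39, and 11 lay wholly below WT (20.3% of all genes). None passed the test. The count below 0 was 19 or 20 under every other processing and 16 to 20 when 1 array was left out. At 4 h 13 of the 20 had lower means in *agb1* (42.7% of all genes did), with a median of -0.05, and 8 without replicate 3 of *agb1* at 4 h. With salt 18 of the 20 were higher in *agb1*, where 13631 of all 25206 genes were lower. Their median was 0.26 and none passed the test, and without replicate 3 of *agb1* at 0 h 8 of the 20 were lower. In WT 9 of the 20 had lower means at 4 h (58.7% of all genes did), and 6 without replicate 3 of WT at 0 h, with a median of 0.02 in the full fit. Of the 20 genes 2 fell, against 11.2% of all genes: *FLA12*, a fasciclin-like arabinogalactan protein (-1.04, adjusted p = 0.00571), and *IRX14*, a xylan synthase component (-0.48, adjusted p = 0.0319). The call of *IRX14* was lost without any one of the WT arrays at 0 h or replicate 1 or 2 of WT at 4 h, with WT arrays at 0 h averaged, with the slide block (adjusted p = 0.0993) and without the filter on dim probes, and that of *FLA12* was kept in every fit run.

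**Figure D4:**
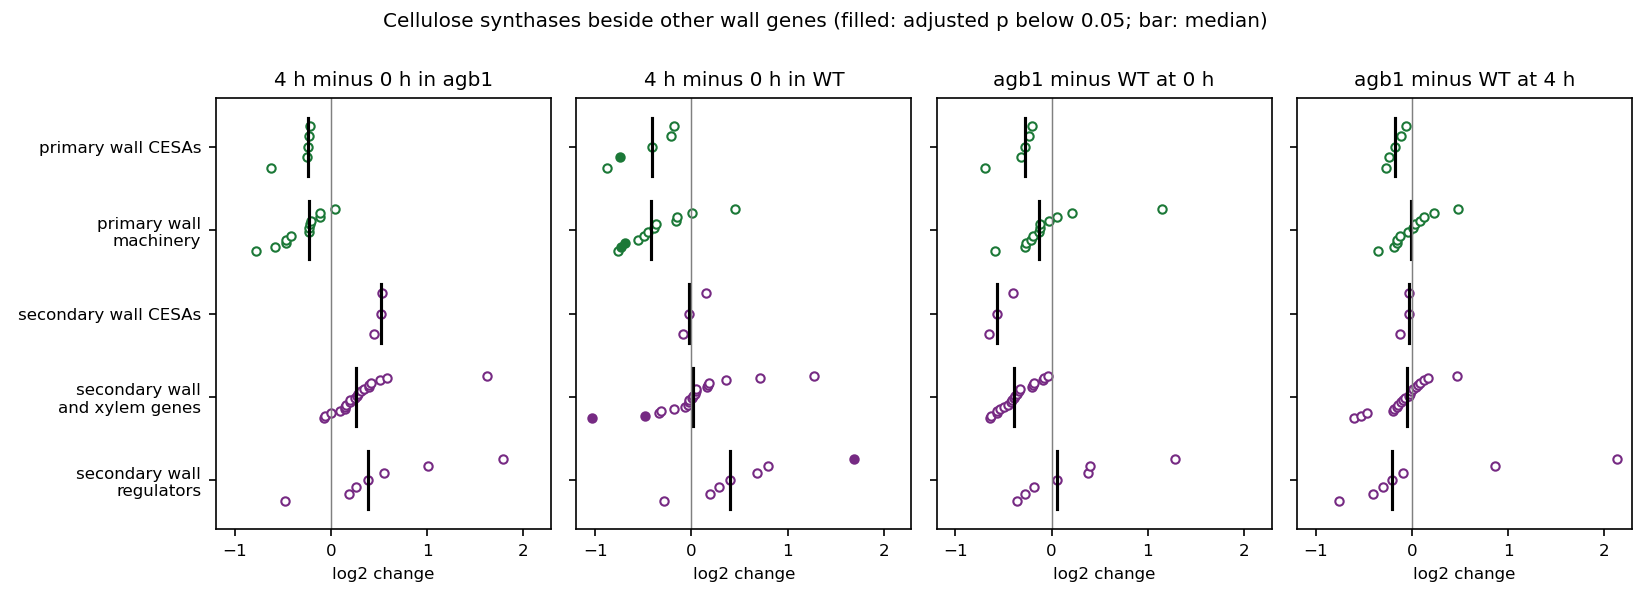
Log2 change of each gene (points) and the median (bars) for the primary and secondary wall CESAs and 3 lists of other wall genes, in 4 comparisons; filled points have an adjusted p below 0.05. Points and medians of the secondary wall regulators include NAC012, which was not above background on every array. In agb1 against WT at 0 h all 3 secondary wall CESAs and all 20 secondary wall and xylem genes lie below 0, with medians of -0.57 and -0.39, and at 4 h their medians are -0.03 and -0.05.

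Of 8 transcription factors of secondary wall formation 7 were tested. *NAC101* (*VND6*), a master regulator of metaxylem vessels, had -3.84, -3.10 and -3.42 in WT at 4 h, against -5.07, -5.16 and -5.19 at 0 h, and rose by 1.69 (SE 0.22, adjusted p = 0.00135). In *agb1* it had -3.70, -3.47 and -4.10 at 4 h, against -4.87, -4.94 and -4.62 at 0 h, a change of 1.01 (SE 0.24, adjusted p = 0.0667). The groups did not overlap in either genotype. Of the 7 it was the 1 that passed a test, and 8.84% of all genes passed upward with salt in WT. Of the 6 that were above background on all 12 arrays 5 had higher means at 4 h in *agb1* and 6 in WT. Over all genes 13631 of 25206 had lower means at 4 h in *agb1* and 58.7% in WT. The seventh, *NAC012*, was well above background on 5 arrays and entered the test through *agb1* at 4 h, where it is highest, so the counts among the 6 leave it out. With *NAC012* kept among the 7, 5 had lower means in WT with normexp background correction. That correction lowered the median of all genes there to -0.31, and with it *NAC101*, called in every other fit, was not.

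Markers of root cell types were read beside these values. The 5 xylem vessel markers, of which 4 also stand in the list of 20, were all above background on every array, and all 5 had lower means in *agb1* than in WT at 0 h. Their summed signal, in multiples of the array's 75th percentile, was 13.8 to 18.9 in *agb1* at 4 h, 12.0 to 12.4 in *agb1* at 0 h, 14.8 to 15.9 in WT at 4 h and 14.4 to 15.6 in WT at 0 h. The summed signal of the list of 20 was 30.1 to 37.3 in *agb1* at 4 h, 25.3 to 25.5 in *agb1* at 0 h, 32.9 to 35.8 in WT at 4 h and 31.9 to 34.1 in WT at 0 h. Such sums are weighted toward their brightest probes, in both of these *XCP1* and *XCP2*, so they are not separate observations. None of the 5 passed the test at 0 h (lowest adjusted p = 0.178, *IRX12*), and *XCP1* overlapped between the genotypes. Markers were also set beside the mean centred profile of *CESA4*, *CESA7* and *CESA8* over the 11 samples. *XCP2*, *VND7*, *IRX9*, *IRX12* and *XCP1* had r of 0.82, 0.77, 0.74, 0.67 and 0.65. The endodermis marker *CASP1* and the shoot marker *CAB1* had 0.68 each, while *SCR*, *RBCS1A* and *LHCB2.1* had -0.0074, 0.45 and 0.20. The part of vessel or other cells in the values of *CESA4*, *CESA7* and *CESA8* was not tested. The 2 endodermis markers also had lower means in *agb1* at 0 h, but *SCR* overlapped between the genotypes. Their sum, mostly the signal of the brighter *CASP1*, was 12.3 to 13.8, against 16.8 to 19.3 in WT. With salt *SCR* fell in WT (-0.73, adjusted p = 0.0306) while *CASP1* had -0.06. The call of *SCR* was lost without any one of the WT arrays at 0 h or replicate 1 or 3 of WT at 4 h, with WT arrays at 0 h averaged, with the slide block (adjusted p = 0.0682) and with normexp (0.0714).

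Markers of dividing cells had lower values after salt in WT, as the primary wall genes did. Over the 11 samples *CDKB2;1*, *CYCB1;4* and *CYCB1;1* had r of 0.15, 0.41 and 0.22 to the mean centred profile of *CESA1*, *CESA3* and *CESA6*. All of them fell with salt in WT (11.2% of all genes did), by 0.79, 0.78 and 0.66 (adjusted p = 0.00308, 0.00377 and 0.0232). They had -0.29, -0.42 and -0.83 in *agb1* (adjusted p of 0.0546 and above). *CYCB1;1* was not called without replicate 1 or 3 of WT at 0 h or replicate 1 or 2 of WT at 4 h, nor with WT arrays at 0 h averaged or with normexp. Their summed signal was 1.66 to 1.83 in *agb1* at 4 h, 2.32 to 2.40 in *agb1* at 0 h, 1.25 to 1.30 in WT at 4 h and 2.06 to 2.22 in WT at 0 h. Replicate 3 of *agb1* at 0 h, low in the primary wall genes, had the highest of these sums (2.40). The part of dividing cells in the primary wall values was not tested.

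The phloem marker *SUC2* rose with salt by 1.20 in *agb1* (adjusted p = 0.0305) and by 1.87 in WT (adjusted p = 0.000506), while *APL* had 0.24 and 0.08. The call of *SUC2* in *agb1* was lost without any one of the WT arrays at 0 h or replicate 2 or 3 of *agb1* at 4 h, with WT arrays at 0 h averaged, and with normexp, the mean of all probes, array weights or only the 2 groups in the fit. Root hair markers *EXPA7*, *SHV2* (*COBL9*) and *RSL4* passed no test, and their summed signal was 2.16 to 2.64 in *agb1* at 4 h, 2.86 to 8.10 in *agb1* at 0 h, 1.83 to 7.55 in WT at 4 h and 3.87 to 4.67 in WT at 0 h. As in the primary wall genes, replicate 3 was lowest in *agb1* at 0 h (2.86) and highest in WT at 4 h (7.55). Their r to the mean centred profile of *CESA1*, *CESA3* and *CESA6* was 0.60, 0.91 and 0.81. The part of root hair cells in the primary wall values was not tested. Shoot markers *CAB1*, *RBCS1A* and *LHCB2.1* were above background in all roots and passed no test, with summed signals of 6.06 to 10.3 in *agb1* at 4 h, 2.58 to 3.79 in *agb1* at 0 h, 4.48 to 13.2 in WT at 4 h and 7.11 to 9.71 in WT at 0 h. The low sum in *agb1* at 0 h was carried by *CAB1* (-1.41 against WT, adjusted p = 0.139) and *RBCS1A* (-0.90, groups overlapping), while *LHCB2.1* had 0.0049, and the part of these transcripts in the values there was not tested.

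The genes whose profile over the 11 samples was most like the mean centred profile of *CESA4*, *CESA7* and *CESA8*, among 19335 genes above background on every array, were *MAN6* (r = 0.98), an endo-mannanase, AT2G39430 (0.96), the protein kinase *CIPK7* (0.94), AT3G24020 (0.93) and AT5G60700 (0.92). In all 9 genes had r over 0.9, and *IRX6* (*COBL4*), a secondary wall gene of the list of 20, stood at rank 10 with r of 0.90. The nearest genes were chosen for a profile higher at 4 h than at 0 h in *agb1*. Tests of that change in them are therefore not separate observations. AT3G24020 changed there by 0.76 (adjusted p = 0.0495), where 2.11% of all genes passed in either direction. Against the profile of *CESA1*, *CESA3* and *CESA6* the nearest were *GXMT1* (0.97), a xylan methyltransferase, AT1G19900 (0.97), AT3G07900 (0.97), *SGR9* (0.97), known from shoot gravitropism, and AT2G22795 (0.97). There 157 genes had r over 0.9, among them *COB*, which encodes a membrane-anchored protein of oriented cellulose deposition, at rank 17 with r of 0.95. Not every gene of the lists followed its class as *COB* and *IRX6* did. *FLA11* and *IRX14* of the list of 20 had r of 0.80 and 0.79 to this primary wall profile. To that of *CESA4*, *CESA7* and *CESA8* they had 0.59 and 0.35. *CSI1*, of the other primary wall genes, had 0.47 to the primary wall profile. These likenesses share the arrays, the scaling and the group means, and the 11 samples include replicate 3 of *agb1* at 0 h and of WT at 4 h, which stood apart in many genes.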

How the data were processed

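The deposited files held single-channel intensity for 12 Agilent arrays (Cy3), 1 per sample. Per the file headers the authors' scans were read with Feature Extraction 10.7.1.1, whereas the submitters' processing notes give version 9.1; the processed intensity is already background-subtracted. Each intensity was converted here to log2 and the array's 75th percentile was subtracted, so no deposited log2 values were used. Control spots and outlier flags were left out. Of 43603 probes, 34358 matched a locus through the transcript accession in the files and RefSeq's table, giving 25433 loci; per locus the brightest probe was kept, probes without a locus stood alone, and 25206 genes well above background on all arrays of a group were tested. RefSeq symbols were used. The array's genome annotation is older than RefSeq's, so no coordinates are given. Probe and gene sequences were not used here.

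Groups were compared with limma 3.58.1 (lmFit and eBayes, R 4.3.3), 1 model of 4 group means over 11 samples, with Benjamini-Hochberg adjustment over all genes and a call at an adjusted p below 0.05. The script was checked on simulated data. The number of arrays limits the precision. Groups came from the sample labels. Deviations of same-numbered replicates from the group means correlated most in *agb1* against WT at 4 h (r = 0.58, 0.35 and 0.37 over the 3 pairs). In the salt response of WT they correlated less (r = 0.21, 0.09 and 0.19), and in the other comparisons not all pairs had a positive r. Slides (4, of which 1 held a single array) were tested as batches. Members and gene lists were chosen with earlier results of these data known. Besides the members, *CESA9*, *CESA10* and *AGB1*, the text names up to 4 called genes per list and comparison with the largest change, all genes of short lists, the cell type markers and the 5 nearest genes to each of 2 profiles. It also names *COB*, *IRX6*, *FLA11* and *CSI1*, which were chosen after their values were seen, as was the use of *IRX14* beside the profiles. Alternatives tried covered background correction, scaling, dim probes, probe choice, counting of arrays, blocks, weights, the variance model, the call rule and leaving out each array; averaging WT arrays at 0 h was added after seeing the data.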

Additional observations from a re-analysis of the deposited data

How the results depend on the processing

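Under other processing 712 member values kept their direction and their side of the threshold, 13 gained a call, 8 lost one and 17 turned sign; with 1 array left out, 569 kept both, 2 gained, 8 lost and 21 turned. Members called in the salt response of WT numbered 2, and 0 with a 2-fold minimum, 0 with normexp background correction, 1 without a filter on dim probes, 3 with 12 arrays as samples, 1 with 12 arrays and the replicate block, 1 with replicate 3 of WT at 0 h averaged with replicate 1 or 2 (chosen after seeing the data), 0 with the slide block, 6 with array weights, and 0 to 3 with 1 array left out. In the salt response of *agb1* none was called, and 1 (*CESA7*) with 12 arrays as samples, and 0 when the replicate block was added to these (adjusted p = 0.0553). In *agb1* against WT at 0 h none was called, 2 with 12 arrays as samples, and 1 (*CESA8*, adjusted p = 0.0396) when the replicate block was added to these; at 4 h the replicate block within the 4 h arrays called 0, as did every other setting, and the interaction had 0 throughout. The cause of these differences was not tested.

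Normexp moved the median of all genes by more than 0.1, to 0.15 in the salt response of *agb1*, -0.31 in that of WT, -0.25 at 0 h, 0.18 at 4 h and 0.35 in the interaction, and changes under it are relative to these. With the mean of all probes, *CESA1* and *CESA3* turned to 0.083 and 0.045 in the salt response of *agb1*, to 0.022 and 0.093 at 4 h, and *CESA1* to 0.28 in the interaction. With replicates 2 and 3 of WT at 0 h averaged, *CESA4* turned to 0.0087 in the salt response of WT. With array weights *CESA4* turned to 0.033 in the salt response of WT, *CESA2* and *CC2* to 0.064 and 0.0044 at 4 h, and *CESA1* and *CESA6* to 0.047 and 0.037 in the interaction. Median scaling turned *CC2* and *CESA7* to 0.010 and 0.0023 at 4 h, and *CESA1* and *CESA6* to 0.020 and 0.022 in the interaction. Normexp turned *CC2* to 0.021 at 4 h and *CESA3* to -0.012 in the interaction.

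With 1 array left out, at 0 h *CESA1* ran between -0.29 and 0.047, *CESA2* between -0.37 and 0.18 and *CESA6* between -0.26 and 0.14. At 4 h *CESA2* ran between -0.20 and 0.16, *CESA3* between -0.21 and 0.00087, *CESA4* between -0.099 and 0.070, *CESA7* between -0.14 and 0.099 and *CC2* between -0.17 and 0.14. In the interaction *CESA1* ran between -0.32 and 0.13, *CESA2* between -0.24 and 0.48, *CESA3* between -0.092 and 0.28 and *CESA6* between -0.38 and 0.12, and in the salt response of WT *CESA4* between -0.080 and 0.012. The count of the 12 primary wall genes that fell in WT was 2, and 0 to 8 under other processing; in the list of 20 it was 2, and 1 to 3.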
